A study of Danio rerio with 6 samples.

Results

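Whole testis was compared with whole ovary of zebrafish, an animal in which both gonads hold germ cells together with the somatic cells that support them. The comparison used 4 of the 6 RNA sequencing libraries of the study, 2 of testis and 2 of ovary. Of 32253 features listed, 12774 were compared, namely those that reached 1 FPKM in at least 2 of the 4 gonad libraries. FPKM is the number of sequenced fragments per kilobase of transcript, scaled by the number of fragments in the library. A further 20 features were left out because they passed 10000 FPKM in a gonad library, and 19459 lay under the filter.

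All fish were adult wild types of the TLAB strain, with no treatment given in the labels. The testis samples were whole organs dissected from males, and the ovary samples were whole organs dissected from females. The 2 remaining libraries, of mature oocytes squeezed from females, entered the statistical model to help estimate the spread between replicates. They also entered the median-of-ratios scaling and the quantile normalization used below, which were computed over all 6 libraries. Nothing in the labels says whether the 2 libraries of an organ came from different fish, so the p-values measure only the spread between these libraries, which may be technical.

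Spermatogenesis passes through mitotic spermatogonia, meiotic spermatocytes and spermatids that build a flagellum, and all these stages are present side by side in an adult testis. Oocytes in the ovary are arrested in meiotic prophase while they grow, lay down an egg coat and store RNA and protein for the embryo. Sertoli and Leydig cells of the testis, and granulosa and theca cells of the ovary, supply growth factors and sex steroids to the germ cells.

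Replicates of an organ were alike and the organs were far apart. The correlation of log2(FPKM + 1) across the 12774 features was 0.971 between the testis libraries and 0.968 between the ovary libraries, and it ranged from 0.462 to 0.505 between an ovary and a testis library. Features are not independent replicates, so these values are descriptions. Read numbers were not given, so the depth behind the values is unknown. The organs also differed in scale. On the deposited scale the median log2(FPKM + 1) difference, testis minus ovary, was -0.92, and after scaling by the median of ratios it was -0.04. Median-of-ratios scaling divides each library by a factor taken from the middle of its feature ratios, here 0.603 and 0.575 for testis and 1.33 and 1.36 for ovary. The ratios were taken to the geometric mean of all libraries, oocytes included, over features detected in every library. Results on this scale thus depend on the oocyte libraries too. Counts of features are therefore given mainly for those called on both scales.

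A feature was called when limma gave a Benjamini-Hochberg adjusted p under 0.05 and the log2(FPKM + 1) difference was at least 1 in size. On the deposited scale 8258 features (64.6%) were called, 2253 of them higher in testis (17.6%) and 6005 higher in ovary (47%). After median-of-ratios scaling 6714 features (52.6%) were called, 3656 higher in testis (28.6%) and 3058 higher in ovary (23.9%). On both scales 5311 features (41.6%) were called, 2253 higher in testis (17.6%) and 3058 higher in ovary (23.9%). A feature could not be called in opposite directions on these 2 scales, because the factors shift each difference toward testis by too little to reverse a call. The both-scale counts equal the deposited count for testis and the scaled count for ovary. Both testis libraries lay above both ovary libraries for 3276 features (25.6%), and both ovary libraries lay above both testis libraries for 8293 (64.9%). In a whole organ, fewer cells of a type and less RNA per cell cannot be told apart, and this holds for every difference reported here.

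**Figure D1:**
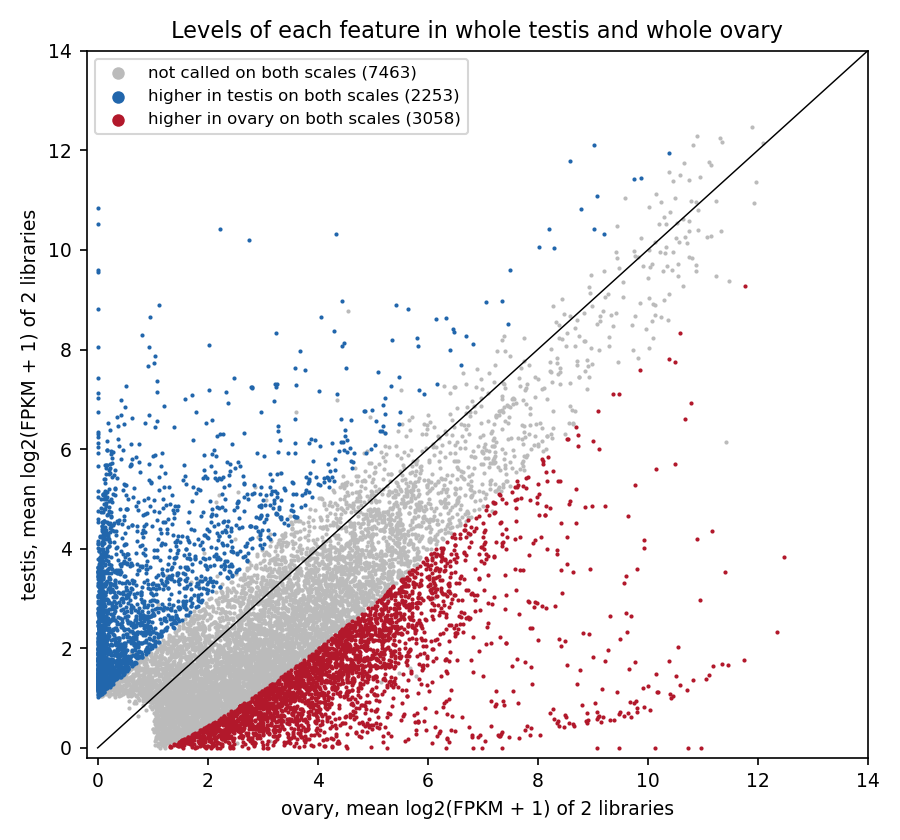
Each point is 1 of the 12774 features compared, with its mean log2(FPKM + 1) over the 2 ovary libraries on the horizontal axis and over the 2 testis libraries on the vertical axis; the line marks equal values. The 2253 features called higher in testis on both scales (blue) crowd along the left edge, and the 3058 called higher in ovary (red) reach farther along the lower edge.

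How many large differences fell in each direction depended on the scale. Among features called on both scales, 515 were higher in testis by at least 3 in log2(FPKM + 1) and 927 were higher in ovary by as much on the deposited scale. These numbers were 942 and 392 after median-of-ratios scaling. At a difference of at least 7 there were 15 higher in testis and 92 higher in ovary on the deposited scale, and 32 and 69 after median-of-ratios scaling. In deposited values, a mean of at least 500 FPKM in the organ of higher level was reached by 22 of the testis features and 88 of the ovary features. There were 268 features at 10 FPKM or more in both testis libraries and under 1 FPKM in both ovary libraries, of which 237 were also under 1 FPKM in both oocyte libraries. In the other direction there were 300 features, of which 276 stood at 1 FPKM or more in both oocyte libraries. The shares of all features at these oocyte levels were not computed, so the oocyte counts are not a result about these sets.

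**Figure D2:**
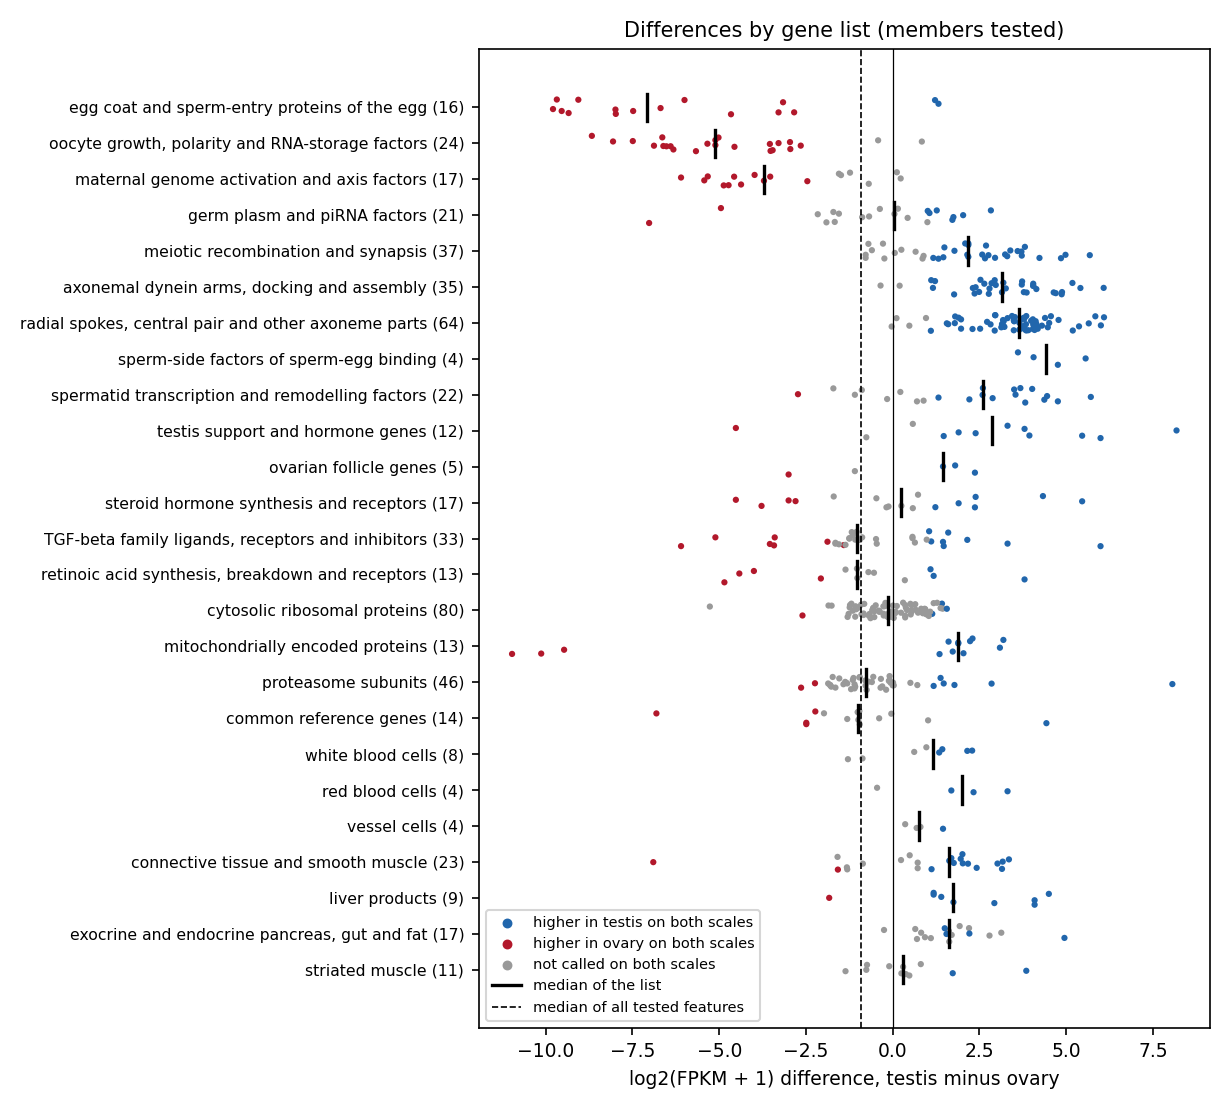
Each point is a tested member of a gene list, placed by its log2(FPKM + 1) difference, testis minus ovary, on the deposited scale; numbers in brackets count the members tested. The 60 of 64 blue points in the row of radial spokes and other axoneme parts lie on the right side, while 14 of 16 egg coat members lie on the left, from -2.84 for zp2l2 to -9.79 for zp3a.1.

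Egg coat genes were among the most unequal. The list held proteins of the zona pellucida family, which form the envelope around the egg, and bouncer, a small membrane protein of the egg that sperm need for entry. Of 19 members matched, 16 were tested and 3 lay under the filter. On both scales 14 were called higher in ovary and 2 higher in testis, against 23.9% and 17.6% of all features tested. Their median difference was -7.09, against -0.92 over all features tested. zp3a.1 (ENSDARG00000042129) stood at 2.56 and 1.83 FPKM in the testis libraries and at 2220 and 3540 FPKM in the ovary libraries, a log2(FPKM + 1) difference of -9.79 ± 0.31 (SE) with an adjusted p of 4.37e-06. For zp3b (ENSDARG00000039828) the values were 6.87 and 6.89 FPKM in testis against 1610 and 2450 FPKM in ovary (difference -7.98 ± 0.30, adjusted p = 5.7e-06). bouncer was listed at 1.52 and 1.06 FPKM in testis and at 491 and 676 FPKM in ovary (difference -7.99 ± 0.35, adjusted p = 7.96e-06). In each of the 3 genes both ovary libraries lay far above both testis libraries.

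The 2 egg coat members called higher in testis were zp2.2 and zp2.5. zp2.2 stood at 1.70 and 1.29 FPKM in testis, and zp2.5 at 1.49 and 1.2 FPKM. Both were listed at 0 in both ovary libraries, as were the 3 members under the filter, zp2.1, zp2.3 and zp2.6. In mature oocytes zp2.2 was at 11.9 and 4.41 FPKM and zp2.5 at 23.0 and 11.0 FPKM. There zp2.1 was at 10.2 and 4.89, zp2.3 at 14.5 and 13.5, and zp2.6 at 3.23 and 3.03 FPKM. An FPKM of exactly 0 can stand for a level that was not estimated. No fold between the organs is therefore given, and the 2 calls do not show a lower level in ovary. Both calls were lost when either testis library was left out, and 1 was left when either ovary library was.

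Factors that shape and stock the oocyte were also higher in ovary. The list held transcription factors, secreted growth factors, RNA-binding proteins and cell cycle regulators, and 24 of its 25 matched members were tested. On both scales 22 were called higher in ovary and 0 higher in testis, against 23.9% and 17.6% of all features tested. Their median difference was -5.11. zar1, an RNA-binding protein of the oocyte, stood at 1.93 and 1.67 FPKM in testis and at 1100 and 1170 FPKM in ovary (difference -8.67 ± 0.18). The maternal linker histone h1m was at 1.88 and 2.15 FPKM in testis against 771 and 836 FPKM in ovary (difference -8.06 ± 0.22). In mature oocytes zar1 was at only 11.3 and 9.06 FPKM, and h1m at 1490 and 1850 FPKM. Replicates lay close together in both organs for both genes, and the organs did not overlap.

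Lower in level, yet as clearly split, were 3 regulators of follicle growth. figla, the transcription factor that switches on egg coat genes in mammals, stood at 0.488 and 0.764 FPKM in testis and at 11.1 and 12 FPKM in ovary (difference -2.95 ± 0.23, adjusted p = 5.05e-05). The oocyte-secreted ligand gdf9 was at 0.442 and 0.635 FPKM in testis against 18.5 and 15.4 FPKM in ovary (difference -3.54 ± 0.24, adjusted p = 2.98e-05). bmp15, another ligand of the oocyte, was at 0.588 and 0.660 FPKM against 57.4 and 52.7 FPKM (difference -5.11 ± 0.16, adjusted p = 4.37e-06). No testis library of these genes reached 1 FPKM. buc, the organizer of the Balbiani body in the zebrafish oocyte, stood at 1.61 and 1.26 FPKM in testis and at 309 and 182 FPKM in ovary (difference -6.61 ± 0.29). The Mos kinase, which acts in oocyte maturation, was at 1.75 and 2.64 FPKM against 346 and 399 FPKM (difference -6.88 ± 0.28). The 2 members not called on both scales were ybx1 and cdk1. ybx1 was at 269 and 317 FPKM in testis against 153 and 174 FPKM in ovary. After median-of-ratios scaling it was called higher in testis, with a difference of 2.03. cdk1, called on neither scale, was at 32.4 and 38.9 FPKM in testis against 48.5 and 47.0 FPKM in ovary.

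Genes that the mother stores for genome activation and body axes followed the same direction in part. Of 20 members matched, 17 were tested. Of these, 11 were called higher in ovary on both scales and 0 higher in testis, against 23.9% and 17.6% of all features tested. On the deposited scale 14 were called higher in ovary, against 47% of all features. The median difference was -3.71. nanog, which with pou5f3 and sox19b activates the zebrafish zygotic genome, stood at 6.71 and 8.70 FPKM in testis and at 329 and 363 FPKM in ovary (difference -5.33 ± 0.26). pou5f3 was at 0.545 and 0.743 FPKM in testis against 57.2 and 84.8 FPKM in ovary (difference -5.43 ± 0.23). The groups did not overlap for either gene. hwa (huluwa), which starts dorsal axis formation in zebrafish, was at 1.09 and 1.36 FPKM in testis and at 50.6 and 80.7 FPKM in ovary (difference -4.87 ± 0.38). gdf3, a ligand that pairs with Nodal proteins, was at 1.22 and 1.19 FPKM against 247 and 91.1 FPKM (difference -6.10 ± 0.64), with ovary replicate 1 well above replicate 2. Both ovary libraries were nevertheless far above testis.

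Genes that mark germ cells of both sexes were split. The list of germ plasm and piRNA factors, which protect germ cells against transposons and keep their identity, had 21 of 22 matched members tested. On both scales 7 were called higher in testis and 2 higher in ovary, against 17.6% and 23.9% of all features tested. The other 12 were not called on both scales. The median difference was 0.05 on the deposited scale and 1.15 after median-of-ratios scaling. Without ovary replicate 2 the number higher in testis on the deposited scale was 4. The RNA helicase ddx4 (vasa) stood at 70.8 and 69.0 FPKM in testis and at 21.2 and 19.8 FPKM in ovary (difference 1.72 ± 0.18, adjusted p = 0.000181). piwil1, a piRNA-binding Argonaute protein, was at 74.8 and 43.6 FPKM against 7.74 and 6.65 FPKM (difference 2.83 ± 0.28, adjusted p = 0.000127). Both were higher in each testis library than in either ovary library.

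Its paralog piwil2 overlapped between the organs, at 37.6 and 27.5 FPKM in testis and 28.5 and 29.2 FPKM in ovary (difference 0.15 ± 0.27, adjusted p = 0.621). After median-of-ratios scaling piwil2 was called higher in testis, with a difference of 1.31. dazl, an RNA-binding protein of germ cells, was at 68.2 and 117 FPKM in testis and at 57.9 and 33.1 FPKM in ovary (difference 1.01 ± 0.39, adjusted p = 0.0491). This call was lost with the replicate number in the model (adjusted p = 0.0687). The dazl difference was 0.63 without testis replicate 2 (adjusted p = 0.28) and 0.62 without ovary replicate 2 (adjusted p = 0.252), and without testis replicate 1 it was 1.40 (adjusted p = 0.0534). The mitochondrial phospholipase pld6, which acts in piRNA processing, was at 31.2 and 34.8 FPKM in testis against 7.98 and 6.69 FPKM in ovary (difference 2.03 ± 0.18).

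The 2 members called higher in ovary on both scales were nanos3 and ca15b. nanos3, a translational repressor needed to keep germ cells in the zebrafish ovary, stood at 0.533 and 0.428 FPKM in testis and at 42.6 and 47.3 FPKM in ovary (difference -4.95 ± 0.18, adjusted p = 5.4e-06). ca15b, a carbonic anhydrase gene, was at 0.279 and 0.218 FPKM against 157 and 166 FPKM (difference -7.02 ± 0.24). All testis values of both genes were under 1 FPKM. Scaling decided others in each direction: dnd1, tdrd5, henmt1, asz1 and gtsf1 were called higher in ovary on the deposited scale alone. piwil2, TDRD6, tdrd9 and rnf17 were called higher in testis after median-of-ratios scaling alone. On that scale 11 members were higher in testis and 2 higher in ovary, against 28.6% and 23.9% of all features tested.

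Meiosis takes place in both organs, and its genes were higher in testis in most cases. Of 38 members matched, 37 were tested. On both scales 26 were called higher in testis and 0 higher in ovary, against 17.6% and 23.9% of all features tested. Their median difference was 2.18. sycp3, of the lateral element of the synaptonemal complex, stood at 68.4 and 63.8 FPKM in testis and at 0.270 and 0.356 FPKM in ovary (difference 5.68 ± 0.18, adjusted p = 4.37e-06). The recombinase dmc1, which pairs homologous strands, was at 16.7 and 9.31 FPKM against 0.0238 and 0.0242 FPKM (difference 3.72 ± 0.26, adjusted p = 3.26e-05). hormad1, a chromosome axis protein, was at 39.8 and 29.4 FPKM in testis and at 0.0787 and 0.156 FPKM in ovary (difference 4.98 ± 0.21). All 3 genes were under 1 FPKM in both ovary libraries, far from their testis values.

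Not every member of the list was called. spo11, whose product makes the DNA breaks that start recombination, stood at 7.60 and 7.90 FPKM in testis and at 7.07 and 5.73 FPKM in ovary (difference 0.25 ± 0.22, adjusted p = 0.325). It was called higher in testis after median-of-ratios scaling, with a difference of 1.30. This gene was chosen after its values were seen.

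Flagellum genes were higher in testis almost without exception. The axoneme is the shaft of microtubules and motors inside a sperm tail, and dynein arms are its motors. Of 41 dynein arm, docking and assembly genes matched, 35 were tested, and 33 were called higher in testis on both scales and 0 higher in ovary (median difference 3.15). Among all 41, filtered or not, 40 had the higher mean FPKM in testis. Of 66 radial spoke, central pair and other axoneme genes matched, 64 were tested. On both scales 60 of these were called higher in testis and 0 higher in ovary (median difference 3.65). Of all features tested, 17.6% were called higher in testis and 23.9% higher in ovary. dnali1, a light intermediate chain of inner arm dynein, stood at 88.6 and 84.2 FPKM in testis and at 1.11 and 1.01 FPKM in ovary (difference 5.41 ± 0.18). dnaaf2, which helps assemble dynein arms, was at 305 and 245 FPKM against 3.48 and 2.69 FPKM (difference 6.08 ± 0.20). Neither gene had an ovary library near a testis library.

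Among the structural parts, cfap77 stood at 82.9 and 91.2 FPKM in testis and at 0.281 and 0.305 FPKM in ovary (difference 6.09 ± 0.18). The radial spoke gene rsph9 was at 64.4 and 78.1 FPKM against 0.0883 and 0.160 FPKM (difference 6.0 ± 0.20). tekt1, of the tektin filaments inside doublet microtubules, was at 63.3 and 54.3 FPKM in testis and at 0.143 and 0.231 FPKM in ovary (difference 5.65 ± 0.19). All 3 genes were under 1 FPKM in both ovary libraries. The 2 dynein-list members not called on both scales were dnaaf10 and cfap298. In the other list these were ODF2 (ENSDARG00000028900), odf2b, odf3l2a and spata18, of which the first 3 were called higher in testis after median-of-ratios scaling.

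Sperm-side genes of egg binding were few in the table but all in 1 direction. Of 5 matched, 4 were tested and all 4 were called higher in testis on both scales, against 17.6% of all features tested. Their median difference was 4.41. dcst1 and dcst2 encode sperm membrane proteins needed for fertilization. dcst1 stood at 15 and 9.19 FPKM in testis and at 0.0494 and 0.0395 FPKM in ovary (difference 3.61 ± 0.23). dcst2 was at 18.0 and 15.9 FPKM against 0.0386 and 0.108 FPKM (difference 4.06 ± 0.16). tmem81, a sperm membrane protein of the fertilization complex, was at 22.8 and 39.7 FPKM against 0.0919 and 0.209 FPKM (difference 4.76 ± 0.28). spaca9 was at 58.6 and 43.7 FPKM in testis and at 0.1 and 0.0854 FPKM in ovary (difference 5.56 ± 0.21). The member under the filter, spaca6, was at 0.0579 and 0.0543 FPKM in testis and at 0 and 0.000707 FPKM in ovary. Among the 5 matched, spaca6 was therefore at the lowest level, although its product is required on zebrafish sperm. Whether values so near 0 are true levels or poor estimates was not tested.

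Of 25 spermatid transcription and remodelling genes matched, 22 were tested (median difference 2.6). On both scales 14 were called higher in testis and 1 higher in ovary, against 17.6% and 23.9% of all features tested. cremb, named for the CREM activator of spermatid genes in mice, stood at 63.2 and 58.9 FPKM in testis and at 0.112 and 0.257 FPKM in ovary (difference 5.71 ± 0.18). rfx3, a transcription factor of cilium genes, was at 130 and 177 FPKM against 6.44 and 11.0 FPKM (difference 4.02 ± 0.29). Both genes were higher in each testis library. The exception was ttll4, a tubulin-modifying enzyme, at 8.07 and 7.18 FPKM in testis and 66.5 and 47.6 FPKM in ovary (difference -2.73 ± 0.21).

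**Figure D3:**
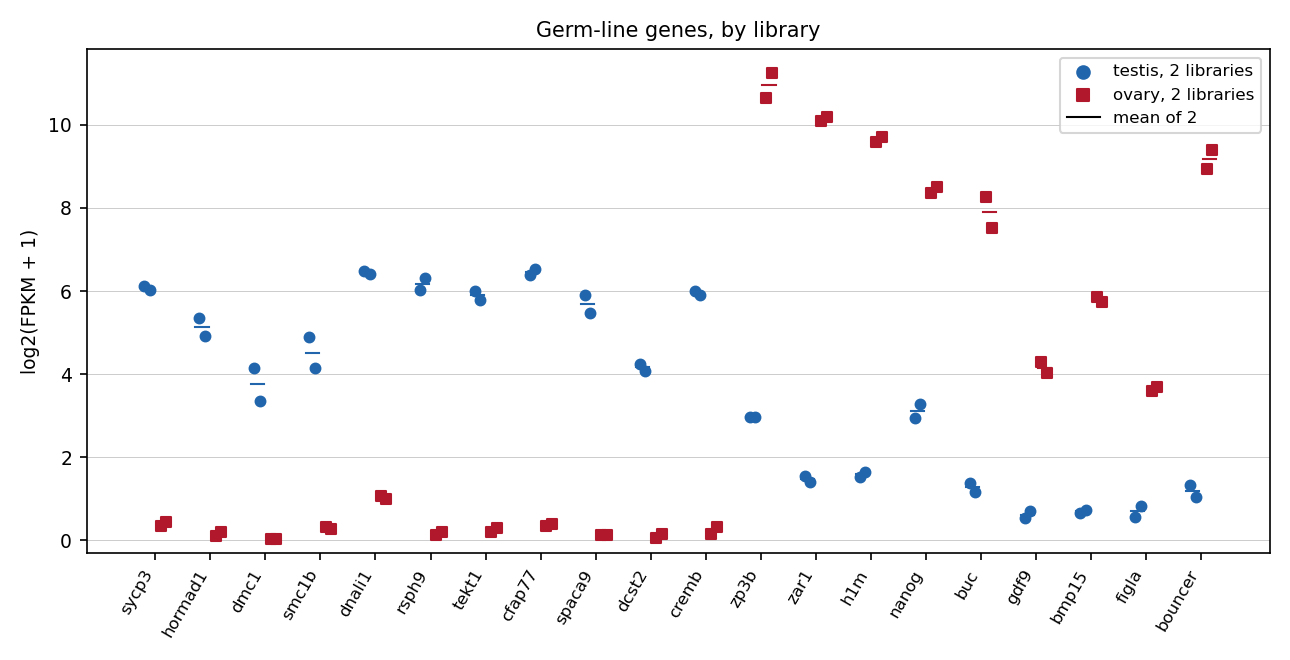
Level of 20 germ-line genes in each library, as log2(FPKM + 1) on the vertical axis, with testis libraries as blue circles, ovary libraries as red squares and a bar at each mean of 2. The 11 genes of meiosis and sperm on the left are at or under 1.11 FPKM in both ovary libraries, and the 9 genes of the oocyte on the right are highest in ovary, from figla at 11.1 and 12 FPKM to zp3b at 1610 and 2450 FPKM.

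Somatic support genes of the testis included some of the largest differences. Of 23 testis support and hormone features matched, 12 were tested and 11 lay under the filter. On both scales 9 were called higher in testis and 1 higher in ovary, against 17.6% and 23.9% of all features tested. Their median difference was 2.85. insl3, an insulin-like hormone of Leydig cells, stood at 976 and 1900 FPKM in testis and at 2.88 and 4.65 FPKM in ovary (difference 8.18 ± 0.38, adjusted p = 9.37e-06). gsdf, a TGF-beta family factor of fish gonads, was at 1220 and 1350 FPKM against 13.1 and 28.0 FPKM (difference 5.99 ± 0.37, adjusted p = 2.29e-05). Both were high in the 2 testis libraries and far lower in either ovary library.

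dmrt1, the transcription factor that maintains testis fate, stood at 18.7 and 17.9 FPKM in testis and at 0.331 and 0.188 FPKM in ovary (difference 3.94 ± 0.22, adjusted p = 1.69e-05). amh, anti-Müllerian hormone, was at 10.4 and 8.65 FPKM against 0.0526 and 0.0561 FPKM (difference 3.31 ± 0.15, adjusted p = 7.96e-06). The groups were well separated for both. Of the 2 features named SOX9, ENSDARG00000043923 was at 2 and 0.747 FPKM in testis and at 2.81 and 3.44 FPKM in ovary, and was not called (difference -0.84 ± 0.28, adjusted p = 0.0271). The other, ENSDARG00000003293, lay under the filter at 0.554 and 0.960 FPKM in testis and 0.0341 and 0.0750 FPKM in ovary. The names used here do not tell the paralogs sox9a and sox9b apart. The receptors fshr and lhcgr, for the pituitary gonadotropins, also lay under the filter, with no gonad library above 0.543 FPKM.

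Most granulosa and theca features matched lay under the filter, as did 19459 of the 32253 features listed. Of 21 ovarian follicle features matched, 5 were tested and 16 lay under the filter. On both scales 1 was called higher in ovary and 3 higher in testis, against 23.9% and 17.6% of all features tested. Their median difference was 1.45. With 5 members tested, the counts are not a result about follicle cells. The member higher in ovary was CYP19A1 (ENSDARG00000041348), aromatase, which makes estrogen from androgen. It stood at 0.0645 and 0.0413 FPKM in testis and at 4.65 and 11.5 FPKM in ovary (difference -3.00 ± 0.35, adjusted p = 0.000292). FOXL2, a transcription factor of granulosa cells, was matched to 2 features. ENSDARG00000068417 was at 0.167 and 0.111 FPKM in testis and at 1.42 and 1.43 FPKM in ovary, a difference of -1.09 ± 0.10 that was called on the deposited scale and not after median-of-ratios scaling (-0.74). ENSDARG00000042180 lay under the filter, at 0.130 and 0.172 FPKM against 0.893 and 0.946 FPKM. The 3 list members higher in testis were FST (follistatin, an inhibitor of activins), rspo2 (a Wnt pathway agonist) and hsd3b1, so the list's name did not match their direction here.

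The list of steroid enzymes and hormone receptors held members called in each direction. Of 31 features matched, 17 were tested, and on both scales 6 were called higher in testis and 4 higher in ovary (median difference 0.25). Over all features tested 17.6% were called higher in testis and 23.9% higher in ovary. The ovary count lay near that share, so it is not a result about the list. cyp11c1, which makes the fish androgen precursors and cortisol, stood at 40.1 and 57.9 FPKM in testis and at 0.0994 and 0.134 FPKM in ovary (difference 5.46 ± 0.23, adjusted p = 7.04e-06). star, which carries cholesterol into mitochondria, was at 21.9 and 22 FPKM against 0.117 and 0.167 FPKM (difference 4.33 ± 0.16). Both lay under 1 FPKM in every ovary library. hsd3b1 was at 8 and 12.7 FPKM in testis and 1.26 and 1.03 FPKM in ovary (difference 2.37 ± 0.23). hsd3b2 was at 0.222 and 0.132 FPKM in testis and at 14.3 and 46.3 FPKM in ovary (difference -4.52 ± 0.51, adjusted p = 0.000243). The pair, both named as 3-beta-hydroxysteroid dehydrogenases, was thus opposite between organs.

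CYP11A1, the enzyme that cleaves the cholesterol side chain, was also matched to a pair of features of opposite direction. ENSDARG00000092696 stood at 1.92 and 2.12 FPKM in testis and 0.356 and 0.229 FPKM in ovary (difference 1.23 ± 0.11). ENSDARG00000002347 stood at 0.593 and 0.462 FPKM in testis and at 21.9 and 18.2 FPKM in ovary (difference -3.78 ± 0.30). This feature was at 78.8 and 145 FPKM in mature oocytes, and which ovary cells held it was not tested. No library of the lower organ reached those of the higher one. cyp17a1, whose product makes androgens, overlapped between the organs at 10.0 and 9.61 FPKM in testis and 8.77 and 14.5 FPKM in ovary (difference -0.18 ± 0.30, adjusted p = 0.592). The estrogen receptor ESR2 (ENSDARG00000034181) was called higher in testis, at 6.72 and 7.04 FPKM against 0.579 and 0.429 FPKM (difference 2.39 ± 0.14). Both genes were chosen after their values were seen.

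**Figure D4:**
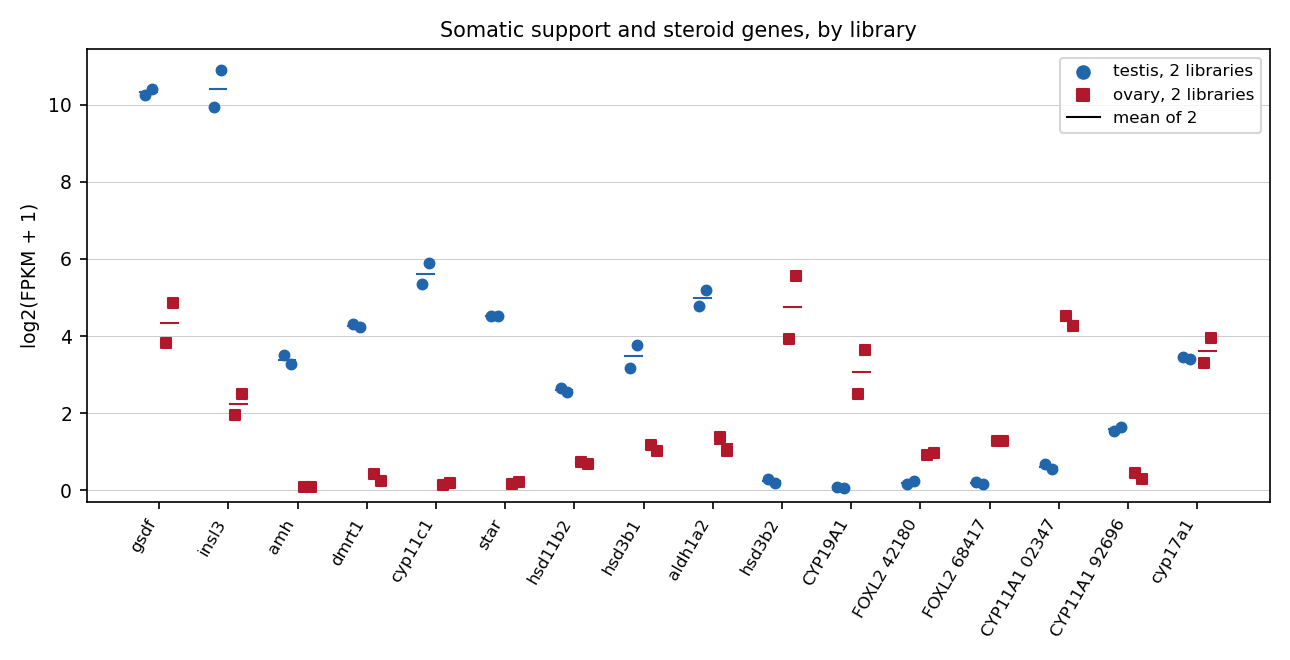
Level of somatic support and steroid genes in each library, as log2(FPKM + 1), with testis libraries as blue circles, ovary libraries as red squares and a bar at each mean of 2. Where a symbol has 2 features, the last digits of the ID are added. The first 9 genes, from gsdf to aldh1a2, and the second CYP11A1 feature are higher in testis; hsd3b2, CYP19A1, both FOXL2 features and the first CYP11A1 feature are higher in ovary, and cyp17a1 overlaps.

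Among ligands, receptors and inhibitors of the TGF-beta family, some were called higher in testis and some higher in ovary. Of 64 ligands, receptors and inhibitors matched, 33 were tested, with 8 called higher in testis and 7 higher in ovary on both scales. Over all features tested these shares were 17.6% and 23.9%. On the deposited scale alone 17 were called higher in ovary. The medians were -1.04 and -0.20 on the deposited and the median-of-ratios scale, near those of all features. The counts are therefore not a result about the list. Beside the ligands gsdf, amh, gdf9, bmp15 and gdf3 given above, the receptor bmpr1ba stood at 2.17 and 1.68 FPKM in testis and at 23.7 and 37.1 FPKM in ovary (difference -3.40 ± 0.45). smad2, the transducer of Nodal and activin signals, was at 7.45 and 7.24 FPKM against 83.9 and 93.5 FPKM (difference -3.42 ± 0.18). smad7, an inhibitor of the pathway, went the other way, at 7.56 and 12.2 FPKM in testis and 1.22 and 1.57 FPKM in ovary (difference 2.15 ± 0.29).

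Retinoic acid, made from vitamin A, acts on germ cell differentiation in vertebrate gonads. Of 27 features matched, 13 were tested, with 3 called higher in testis and 4 higher in ovary on both scales. Over all features tested these shares were 17.6% and 23.9%. The list's medians of -1.02 and -0.16 on the deposited and the median-of-ratios scale also lay near those of all features, so the counts are not a result about the list. On the deposited scale 7 were called higher in ovary, and without testis replicate 1 the number called higher in testis on that scale was 1. aldh1a2, the enzyme of the last step of retinoic acid synthesis, stood at 26.6 and 35.9 FPKM in testis and at 1.61 and 1.01 FPKM in ovary (difference 3.80 ± 0.23). RDH10 (ENSDARG00000012369), of the preceding step, was at 1.78 and 1.89 FPKM in testis and at 102 and 64.0 FPKM in ovary (difference -4.85 ± 0.28). Enzymes of consecutive steps thus had opposite directions. The receptor rarab was at 1.33 and 1.46 FPKM against 36.3 and 38.2 FPKM (difference -4.00 ± 0.16).

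Markers of other cell types were called higher in testis more often than in ovary on both scales, and their part in the results was not tested. Over all features tested 17.6% were called higher in testis and 23.9% higher in ovary. The 29 white blood cell markers matched summed to 68.0 and 58.2 FPKM in testis and 21.7 and 20 FPKM in ovary, and 4 of 8 tested were called higher in testis on both scales and 0 higher in ovary. cd74a, of antigen-presenting cells, was at 38.5 and 28.4 FPKM in testis and at 6.16 and 7.27 FPKM in ovary (difference 2.15 ± 0.22). Of the 36 connective tissue and smooth muscle features matched, 23 were tested, with 13 called higher in testis and 2 higher in ovary on both scales. COL1A1 (ENSDARG00000035809), a chain of fibrillar collagen, was at 29.1 and 24.3 FPKM against 1.09 and 2.54 FPKM (difference 3.35 ± 0.55). A feature named tagln (ENSDARG00000045408) was at 328 and 615 FPKM in testis and at 39.5 and 61.0 FPKM in ovary (difference 3.17 ± 0.36). In mature oocytes cd74a was at 11.7 and 9.89 FPKM, COL1A1 at 2.37 and 10.0 FPKM, and tagln at 1.45 and 0.893 FPKM. Which cells held these transcripts was not tested.

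The 2 connective tissue members higher in ovary were thy1 and an FN1 feature. thy1 was at 6.78 and 4.49 FPKM in testis and at 403 and 1500 FPKM in ovary (difference -6.90 ± 0.74), and at 4310 and 1440 FPKM in mature oocytes. Of 11 red blood cell features matched, 4 were tested and 3 called higher in testis on both scales. Of 18 vessel features, 4 were tested and 1 was called higher in testis on both scales, and 3 were after median-of-ratios scaling. Of 20 striated muscle features, 11 were tested and 2 were called higher in testis on both scales, and 5 were after median-of-ratios scaling. On both scales 0 members of these 3 lists were called higher in ovary, and on the deposited scale 1 striated muscle feature was. With 17.6% of all features called higher in testis on both scales, the vessel and striated muscle counts are not a result about those cells.

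Transcripts typical of other organs were listed too, and which cells they came from was not tested. The 23 liver products matched summed to 91.1 and 115 FPKM in testis and to 12.2 and 11.9 FPKM in ovary. On both scales 8 of 9 tested were called higher in testis and 1 higher in ovary, against 17.6% and 23.9% of all features. fabp10a, a liver fatty acid-binding protein, was at 21.6 and 16.8 FPKM in testis and at 0.188 and 0.163 FPKM in ovary (difference 4.09 ± 0.21). The 29 pancreas, gut and fat markers summed to 294 and 878 FPKM in testis and to 36.6 and 284 FPKM in ovary, replicate 2 being higher in each organ. The trypsin gene prss1 stood at 51.9 and 189 FPKM in testis and at 11.2 and 76.9 FPKM in ovary, and was not called (adjusted p = 0.144). On both scales 4 of 17 tested markers were called higher in testis and 0 higher in ovary, against 17.6% and 23.9% of all features tested. After median-of-ratios scaling alone 12 were higher in testis, against 28.6% of all. On the deposited scale this number was 1 without testis replicate 2 and 13 without ovary replicate 2.

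Genes of protein synthesis and breakdown depended on the scale. Of 84 features matched by name alone as ribosomal proteins, among them rps19bp1 and rpl7l1, 80 were tested. On both scales 3 were called higher in testis and 1, rpl7l1, higher in ovary. It stood at 9.58 and 7.47 FPKM in testis and at 61.6 and 51.6 FPKM in ovary. The deposited scale gave 3 and 12, the median-of-ratios scale gave 37 and 1, and the replicate number in the model gave 1 and 6 on the deposited scale. Their median difference was -0.14 and 1.05 on the 2 scales. Of 47 proteasome subunits matched, 46 were tested, with 6 called higher in testis and 2 higher in ovary on both scales. The deposited scale gave 6 and 19, and the median-of-ratios scale 15 and 2. Shares of all features tested were 17.6% higher in testis and 23.9% higher in ovary on both scales. They were 17.6% and 47% on the deposited scale, and 28.6% and 23.9% on the median-of-ratios scale. Among the 6, psmb6 was at 188 and 373 FPKM in testis and listed at 0 in both ovary libraries. Whether its 0 values are levels or missing estimates was not tested. PSMB8, a subunit of the immunoproteasome, stood at 11.9 and 11.2 FPKM in testis and at 0.522 and 0.990 FPKM in ovary (difference 2.85 ± 0.23).

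Mitochondrially encoded proteins, subunits of the respiratory chain, were called on both scales for all 13 members, 10 higher in testis and 3 higher in ovary. The shares of all features tested were 17.6% and 23.9%. MT-CO2 stood at 3920 and 4930 FPKM in testis and at 488 and 548 FPKM in ovary (difference 3.09 ± 0.50). MT-ND3 was at 2540 and 4870 FPKM against 309 and 481 FPKM (difference 3.19 ± 0.57). The 10 were those listed above 0 in every gonad library. The 3 higher in ovary, MT-CO3, MT-ATP6 and mt-atp8, were listed at 0 in both testis libraries and at 978 and 1290, 679 and 741, and 1830 and 2200 FPKM in ovary. Whether these 0 values are levels or missing estimates was not tested, so the 3 calls do not show a lower level in testis.

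Of 14 genes used as laboratory references, 4 were called higher in ovary and 1 higher in testis on both scales, against 23.9% and 17.6% of all features tested. gapdh, an enzyme of glycolysis, stood at 26.3 and 14.4 FPKM in testis and at 2190 and 2420 FPKM in ovary (difference -6.81 ± 0.34, adjusted p = 1.2e-05). Its paralog gapdhs was at 165 and 223 FPKM in testis and 11.9 and 13.5 FPKM in ovary (difference 3.82 ± 0.22). The members of this pair had opposite directions. b2m, the light chain of MHC class I, was at 69.7 and 73.0 FPKM in testis against 2.07 and 2.64 FPKM in ovary (difference 4.43 ± 0.18). The actin gene actb1 was at 608 and 628 FPKM against 2790 and 4350 FPKM (difference -2.49 ± 0.40), and lost its call with the replicate number in the model and median-of-ratios scaling together (adjusted p = 0.0713).

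Outside the lists, the features of largest difference with a symbol included the following. The microRNA gene features MIR92A1, at 1730 and 1240 FPKM in testis, and MIRLET7I, at 649 and 915 FPKM, were listed at 0 in both ovary libraries. Such a 0 can stand for a level that was not estimated, so no size of difference is given for them. How many fragments lie behind their testis values is also unknown, because read numbers were not given. tuba7l, an alpha-tubulin gene, stood at 445 and 501 FPKM in testis and at 0.829 and 1.58 FPKM in ovary (difference 7.77 ± 0.25). saxo2, a microtubule-stabilizing protein of cilia, was at 221 and 315 FPKM against 0.605 and 1.26 FPKM (difference 7.12 ± 0.26). Both genes were far higher in each testis library than in either ovary library.

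A COX5B feature, named for a subunit of cytochrome c oxidase (ENSDARG00000068738), stood at 189 and 215 FPKM in testis and at 0.618 and 1.18 FPKM in ovary (difference 6.76 ± 0.23). The other COX5B feature (ENSDARG00000015978), looked at after the values were seen, was high in both organs, at 420 and 674 FPKM in testis and 606 and 916 FPKM in ovary. On the ovary side, QDPR (ENSDARG00000086859), named for a pteridine reductase, stood at 1.25 and 0.972 FPKM in testis and at 875 and 2100 FPKM in ovary (difference -9.33 ± 0.44). Several others of the largest ovary differences carry only clone names, among them si:ch211-226h8.14, at 4.41 and 3.67 FPKM in testis and 4830 and 5630 FPKM in ovary (difference -10.02 ± 0.32).

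The directions of features that share a symbol were counted across the table, a count added after the values were seen. There were 483 symbols with exactly 2 tested features. In 33 of them (6.83%) 1 feature was called higher in testis and the other higher in ovary on both scales. Over all features, 17.6% were called higher in testis and 23.9% higher in ovary, so this share is not a result about shared symbols. In 17 both were higher in testis, in 36 both were higher in ovary, and 397 had another pattern. CKB, brain-type creatine kinase, had ENSDARG00000069752 at 452 and 492 FPKM in testis and 32.4 and 54.4 FPKM in ovary, and ENSDARG00000043257 at 23.9 and 12 FPKM in testis and 932 and 1010 FPKM in ovary. For mcm6, of the helicase that opens DNA for replication, ENSDARG00000057683 was at 15.1 and 12.2 FPKM against 0.0950 and 0.0952 FPKM, and ENSDARG00000033231 at 1.21 and 0.771 FPKM against 92.9 and 72.7 FPKM. The Hsc70 chaperone symbol hspa8 had ENSDARG00000037403 at 13.8 and 9.01 FPKM in testis and 0.133 and 0.160 FPKM in ovary, and ENSDARG00000068992 at 360 and 290 FPKM against 1490 and 1570 FPKM. In none of these pairs did the organs overlap. Reads shared between close copies may have been split between them by the counting, so the level of a single copy is uncertain.

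**Figure D5:**
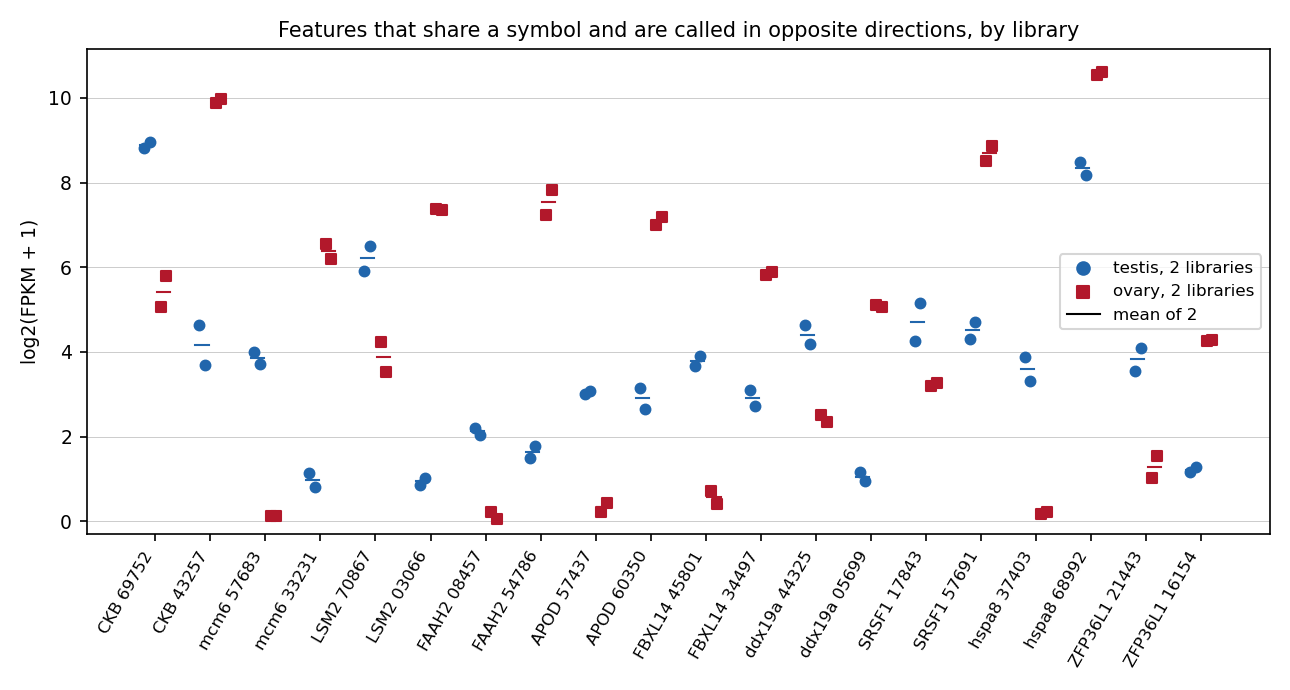
Level in each library, as log2(FPKM + 1), of 10 symbols with 2 features called in opposite directions, each pair side by side with the testis-higher feature first, with testis libraries as blue circles, ovary libraries as red squares and a bar at each mean of 2. The last digits of the ID follow the symbol. In CKB the organs change places between 452 and 492 FPKM in testis for the first feature and 932 and 1010 FPKM in ovary for the second.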

How the data were processed

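FPKM values were deposited by the authors in a single table with a column per library, the unit being taken from the labels. Per the labels' protocols, total RNA was extracted with TRIzol, treated with DNase and made into strand-specific TruSeq libraries read as pairs of 76 bases. The submitters' processing notes name TopHat, Bowtie2, Cuffnorm and the build GRCz10, with no versions. Whether counting used strand, and how reads shared between copies were assigned, is not given in the sources used here. Read numbers are unknown, so counting errors cannot be stated, and 2 libraries per organ limit the precision.

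Values were transformed to log2(FPKM + 1), which understates changes of low features. limma 3.58.1 (R 4.3.3, eBayes with trend) was run on the 6 libraries with testis, ovary and oocyte means as terms, leaving 3 residual degrees of freedom, and the contrast testis minus ovary was tested two-sided with Benjamini-Hochberg adjustment over 12774 features. Differences, standard errors and adjusted p-values printed are on the deposited scale unless stated. On simulated data with 12774 features, 78 of 100 changes of log2 2 and 94 of 100 of log2 3 were recovered, with 7 wrong calls. Only these features were changed there, none of low mean level. Noise was independent between features and the organs had the same scale. The real data had far more differences and a shift in scale, so these rates do not describe the comparison made here.

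Gene names came from a table of Ensembl IDs that matched 26411 of 32253 IDs. It gives some paralogs the same symbol, and these are told apart by ID. The 25 gene lists and the comparison itself were chosen with earlier results of these data known. List names left 74 symbols unmatched. Named in a list were up to 6 members of largest difference called on both scales, up to 3 called against the majority, members that define a cell type, and members of lists of 6 or fewer. Beyond the lists, the 15 largest differences with a symbol in each direction and features listed at 0 in an organ were eligible. Examples outside this rule, such as prss1, smad7 and rplp0 and the members that went without a call, were chosen after their values were seen. Alternatives were another pseudocount, filter, scaling, trend setting, threshold, replicate block, library set and leaving out each library. Leaving out features listed at 0 in both libraries of an organ was added after the data were seen. No reference genome was used, so no coordinates or sequences are given. Some list members are not reported here.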

Additional observations from a re-analysis of the deposited data

Results flagged for a closer look

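There were 7 features listed at 0 in both ovary libraries although both testis libraries and both libraries of mature oocytes, which form in the ovary, stood at 10 FPKM or more. They were trappc1, cntrob, eno3, MEPCE, pfn1, DLG4 and si:dkey-241l7.5. trappc1, a subunit of a vesicle tethering complex, was at 170 and 172 FPKM in testis and at 124 and 115 FPKM in oocytes. cntrob, a centriole protein gene, was at 70.1 and 67.8 FPKM in testis and at 396 and 260 FPKM in oocytes. All 7 were called higher in testis, and whether the 0 values are levels or missing estimates was not tested.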

How the results depend on the processing

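The split between the directions depended on the scale. Against 2253 features higher in testis and 6005 higher in ovary on the deposited scale, median-of-ratios scaling gave 3656 and 3058, quantile normalization 3522 and 3942, and a filter of 5 FPKM lowered the testis count to 1137. The median log2(FPKM + 1) difference of -0.92 became -1.20 with a pseudocount of 0.1, 0.00 with no filter, -1.41 with a filter of 5 FPKM, -0.04 after median-of-ratios scaling, -0.21 after quantile normalization and -0.46 after rescaling each library to a sum of 1000000. On these 4 scales together 2249 features were higher in testis and 3036 higher in ovary throughout. Leaving out 1 library gave 7706 to 8175 calls, where the lone library of an organ was assumed to vary like the others. For named genes, 2814 of 2878 combinations with an alternative kept direction and side of the threshold. Most of these genes were chosen for large differences called on both scales. Their stability was thus partly built in and does not describe calls in general. Among the combinations that did not keep both, piwil2 changed sign without testis replicate 1, its difference ranging from -0.07 to 0.37 as each library was left out. The causes were not tested.

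The 2 organs share replicate numbers 1 and 2, but with 2 pairs these do not establish a pairing (correlation of replicate differences 0.215 across 12774 features). With the replicate number as a block there were 8237 calls, 2250 higher in testis and 5987 higher in ovary. With the block and median-of-ratios scaling together the counts were 3624 and 3029 and the median was -0.04.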

Other observations

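Features above 10000 FPKM were left out of the tests, and some of the 20 differed widely between the organs. h2af1al, a histone H2A gene, stood at 20.8 and 20.1 FPKM in testis and at 7230 and 15600 FPKM in ovary. A feature named crp2 was at 66.8 and 12.9 FPKM in testis and at 27100 and 116000 FPKM in ovary. In the other direction rplp1, a ribosomal stalk protein, was at 5770 and 10500 FPKM in testis and at 2110 and 3460 FPKM in ovary. Some features without a symbol differed more in that direction. ENSDARG00000081938 was at 179000 and 183000 FPKM in testis and at 35600 and 34100 FPKM in ovary. ENSDARG00000083312 was listed at 61500000 and 65700000 FPKM in testis and at 5740000 and 6860000 FPKM in ovary. These values have no test.

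A 0 also stood against a high value within an organ. Among the features tested, 25 had an organ with 1 library listed at 0 and its replicate at 10 FPKM or above. The ribosomal protein gene rplp0 was listed at 0 in testis replicate 1 and at 5050 FPKM in replicate 2, with 1770 and 4220 FPKM in ovary. Of the features called on both scales, 111 were listed at 0 in both ovary libraries and 21 in both testis libraries. Besides the mitochondrial genes, those at 0 in testis included RPSA2, at 400 and 733 FPKM in ovary.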
